A study of Mus musculus with 6 samples.

Results

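Interferon regulatory factors (IRFs) are transcription factors that bind GAAA repeats in the promoters of interferons and of interferon-induced genes. The 7 members described here are Irf1, Irf2, Irf3, Irf4, Irf5, Irf7 and Irf8, chosen by gene name from a table of 54532 genes, which assigns 9 genes to the family. RNA-seq measured them in mouse primary lung fibroblasts, as the source is labelled, cells of lung connective tissue that make extracellular matrix. There were 3 libraries of a calumenin knockdown (KD) and 3 of a group called NC. The sample descriptions give the same libraries a second code, KO beside KD and WT beside NC. How calumenin, which binds calcium in the endoplasmic reticulum and is encoded by Calu, was lowered is not stated there. The labels do not spell out NC, and give neither the strain, age or number of the animals nor whether replicates were separate cultures, so every p-value rests on a spread among these libraries that may be technical.

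In fibroblasts the family acts in sequence. Irf3, present before infection, is phosphorylated by the kinase TBK1 when viral or mislocated nucleic acid is sensed and starts transcription of interferon beta. Irf7 is itself induced by interferon and extends the response to many interferon alpha genes. Irf1 activates and Irf2 mostly represses a shared set of target genes, many of them in antigen presentation. Irf5 acts downstream of Toll-like receptors, and Irf4 and Irf8 are best known for their roles in lymphocytes and myeloid cells.

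Calu checked the labels. It had 14.6, 12.6 and 13.1 FPKM (fragments per kilobase of gene, scaled by library size) in KD1, KD2 and KD3, against 220, 227 and 225 FPKM in NC1, NC2 and NC3. Depth was 15907164 to 18312888 recovered reads per library. The library size behind the FPKM differed from these reads (in KD2 16563100 against 16191536, in NC1 16064057 against 16280183). KD1 stood apart with 2.56% of its reads from mitochondrial genes, while KD2 and KD3 had 1.77% and 1.6% and the NC libraries 1.79% to 1.97%. Of 12 fibroblast markers 9 were expressed at a mean of 1 FPKM or more, including Col1a1, Vim and Pdgfra, while Thy1, Dcn and Lum had at most 0.169, 0.0216 and 0 FPKM in any library. The 9 lung mesenchyme markers, among them Tcf21, Tbx4 and Acta2, summed to 0.150 to 0.265 FPKM in KD and 0.141 to 0.250 FPKM in NC. Tcf21, Col13a1 and Wnt2 were at 0 in all 6 libraries, so the defining lung markers are at or near 0 in cells labelled as lung fibroblasts.

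The letters that IRFs read are shown first on 4 genes with large differences in the data, because they carry the core of the interferon-stimulated response element: GAAA, any 2 bases, GAAA. Each line gives a stretch of 30 bases around the match, upstream of the start of an interferon-induced gene, from RefSeq on build GRCm38.p6, 5′ to 3′ on the strand of the gene. The match is in capitals, on the gene's own strand in Cxcl10 and as the reverse complement (TTTC, any 2 bases, TTTC) in the others. It starts 120 bases before the RefSeq start in Rsad2, 213 in Cxcl10, 122 in Ifit3 and 85 in Ifit1. Rsad2 lies on the minus strand at chr12:26456553-26456582, Cxcl10 on the minus strand at chr5:92349083-92349112, Ifit3 on the plus strand at chr19:34583397-34583426 and Ifit1 on the plus strand at chr19:34640794-34640823.
Rsad2: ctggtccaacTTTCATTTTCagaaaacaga
Cxcl10: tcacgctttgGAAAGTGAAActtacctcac
Ifit3: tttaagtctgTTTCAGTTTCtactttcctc
Ifit1: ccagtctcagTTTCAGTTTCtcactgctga
In windows of 300 bases around the start (250 before it), searched on both strands, 9 of 16 genes of the response-element list that have a window held the motif, against 1079 of 27025 genes in all (3.99%). That list was written as genes known for this element, so its share is a description.

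Promoters of 3 members are shown because Irf7 and Irf1 were lower in KD and Irf2 was not. Capitals mark the same GAAA pair and TTCNNNGAA, the gamma-activated site, which is its own reverse complement. Each stretch ends at the last base before the deposited gene. Irf7 is given at chr7:141266482-141266674 on the minus strand, Irf1 at chr11:53769764-53770013 and Irf2 at chr8:46739495-46739731, both on the plus strand.
Irf7: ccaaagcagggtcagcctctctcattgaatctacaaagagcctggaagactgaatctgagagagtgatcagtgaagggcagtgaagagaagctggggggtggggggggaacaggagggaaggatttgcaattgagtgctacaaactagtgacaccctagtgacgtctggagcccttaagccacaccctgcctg
Irf1: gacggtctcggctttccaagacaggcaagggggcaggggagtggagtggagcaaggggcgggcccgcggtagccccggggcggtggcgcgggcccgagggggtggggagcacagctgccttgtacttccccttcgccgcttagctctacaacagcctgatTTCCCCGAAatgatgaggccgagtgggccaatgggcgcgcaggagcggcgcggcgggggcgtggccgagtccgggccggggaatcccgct
Irf2: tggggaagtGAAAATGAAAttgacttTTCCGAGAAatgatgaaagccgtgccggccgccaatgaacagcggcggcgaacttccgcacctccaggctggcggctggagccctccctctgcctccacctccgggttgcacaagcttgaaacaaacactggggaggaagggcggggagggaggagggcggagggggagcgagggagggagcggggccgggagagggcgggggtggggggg
Irf1 held TTCCCCGAA, whose first base is 90 bases before the RefSeq start. Irf2 held both motifs, GAAAATGAAA at 241 bases and TTCCGAGAA at 224 bases before the start, without overlap. The Irf7 window held neither motif. Among the other members, Irf8 held TTCNNNGAA at 171 and 153 bases before its start, and the windows of Irf3, Irf4 and Irf5 held neither. Of 32851 promoter windows 3.44% held the GAAA pair and 8.30% held TTCNNNGAA. A match is a description of letters, and its absence says only that they are not in this window.

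Irf7 was by far the most abundant member in NC and was 8.0-fold lower in KD. Irf7 (ENSMUSG00000025498, minus strand, chr7:141262706-141266481, mm10) had 11.4, 12.9 and 13.2 FPKM in KD1, KD2 and KD3, against 101, 96.3 and 103 FPKM in NC1, NC2 and NC3. The groups lie far apart and every library is close to its group's mean, which was 12.5 ± 0.956 FPKM in KD and 99.98 ± 3.27 FPKM in NC (SD, n = 3 each). These values rest on 797 to 844 reads per KD library and 5781 to 6144 per NC library. The difference on the log2(FPKM + 1) scale was -2.91 (SE 0.07, 95% interval -3.07 to -2.74), with a limma adjusted p = 3.31e-06 over 12299 tested genes. Only 16 tested genes had a lower difference.

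Irf1, induced by interferon gamma, also fell, by less. Irf1 (ENSMUSG00000018899, plus strand, chr11:53770014-53778374) had 7.76, 8.53 and 8.71 FPKM in KD1, KD2 and KD3, against 12.1, 11.2 and 12.01 FPKM in NC1, NC2 and NC3. All KD libraries are below all NC libraries. The mean was 8.34 ± 0.505 FPKM in KD and 11.8 ± 0.482 FPKM in NC (SD, n = 3 each), or 70.7% of the NC level, and the log2 difference was -0.45 (SE 0.07, limma adjusted p = 0.00438). Among the 4 members with a mean of at least 1 FPKM, the level needed for the test, 2 were therefore lower in KD and 0 higher, where 13.6% of all tested genes were lower and 10.9% higher. At an unadjusted limma p under 0.05 the count of higher members was 1 (Irf3). With voom, limma's model for counts, it was 0 at an adjusted p under 0.05. On genes with at least 10 reads, voom gave Irf3 an unadjusted p = 0.0248 and an adjusted p = 0.0977. Irf7 and Irf1 had all KD values below all NC values, as did 22.9% of tested genes.

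**Figure D1:**
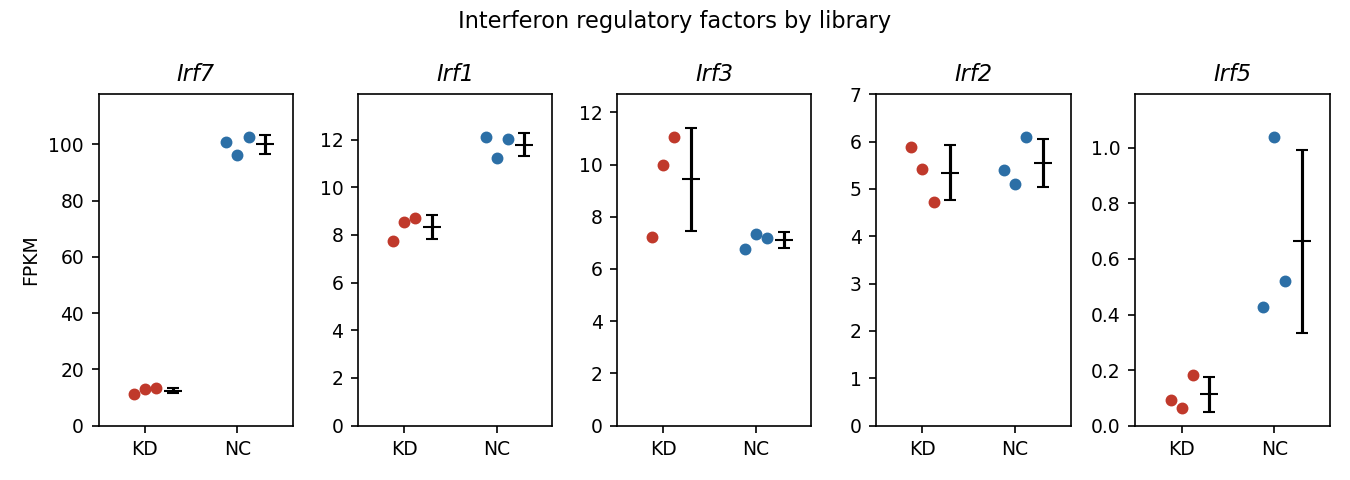
FPKM of 5 members in each of 3 KD (red) and 3 NC (blue) libraries, with the mean and SD in black at the right of each group. Each panel has its own axis from 0. KD lies below NC without overlap for Irf7, Irf1 and Irf5, and the groups overlap for Irf3 and Irf2.

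Irf3, the constitutive member that TBK1 activates, did not pass the test, and its KD libraries disagreed. Irf3 (ENSMUSG00000003184, plus strand, chr7:44997648-45002848) had 7.22, 9.998 and 11.1 FPKM in KD1, KD2 and KD3, against 6.78, 7.35 and 7.19 FPKM in NC1, NC2 and NC3. KD1 lies within the NC range while KD2 and KD3 lie above it. The mean was 9.43 ± 1.98 FPKM in KD and 7.11 ± 0.292 FPKM in NC (SD, n = 3 each), a log2 difference of 0.35 (95% interval 0.01 to 0.68, limma adjusted p = 0.12). Without KD1 the difference was 0.51 and passed (limma adjusted p = 0.00224), and it also passed with a GC and length trend removed (0.29, limma adjusted p = 0.0327). The longest annotated Irf3 transcript has 56.7% GC, more than 86.7% of tested genes. The part of GC content or of KD1 in the result was not tested further.

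Irf2, the repressor that shares its sites with Irf1, had like levels in both groups. Irf2 (ENSMUSG00000031627, plus strand, chr8:46739732-46847458) had 5.88, 5.42 and 4.73 FPKM in KD1, KD2 and KD3, against 5.40, 5.11 and 6.10 FPKM in NC1, NC2 and NC3. The groups overlap, and the mean was 5.34 ± 0.579 FPKM in KD and 5.54 ± 0.507 FPKM in NC (SD, n = 3 each). The log2 difference was -0.04 (95% interval -0.27 to 0.18, limma adjusted p = 0.765), and this interval covers changes in both directions. With each chromosome's median removed it was -0.20 (limma adjusted p = 0.1999).

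**Figure D2:**
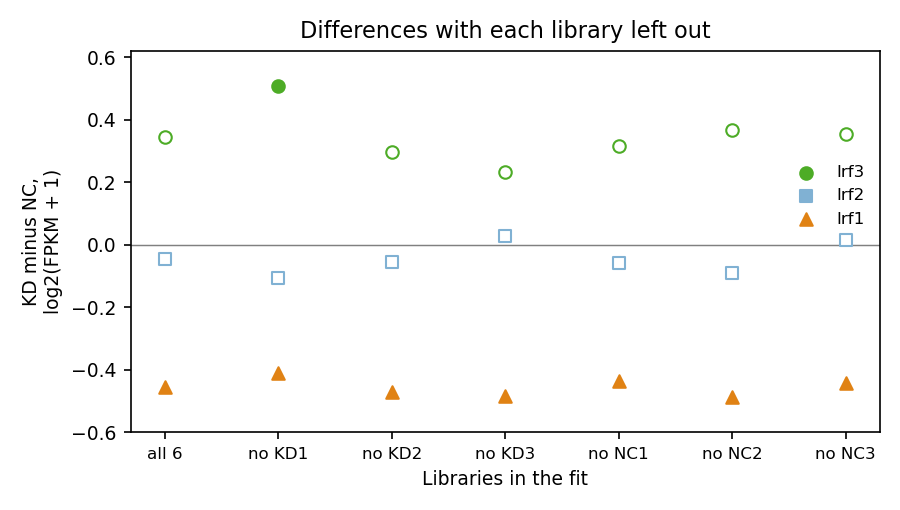
KD minus NC difference in log2(FPKM + 1) for Irf3 (circles), Irf2 (squares) and Irf1 (triangles) with all 6 libraries and with each left out; filled symbols have a limma adjusted p under 0.05. Irf1 stays between -0.49 and -0.41 and is filled throughout, Irf3 is filled only without KD1, and Irf2 lies on either side of 0.

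Irf5, the Toll-like receptor member, was low in all libraries and lower in KD. Irf5 (ENSMUSG00000029771, plus strand, chr6:29526625-29541871) had 0.0930, 0.0623 and 0.183 FPKM in KD1, KD2 and KD3, against 0.429, 1.04 and 0.521 FPKM in NC1, NC2 and NC3. All KD values are below all NC values, and NC2 is the highest of the NC libraries. The mean was 0.113 ± 0.0628 FPKM in KD and 0.663 ± 0.329 FPKM in NC (SD, n = 3 each). It was under the filter, and 11.6% of the 6821 genes with a mean of 0.1 to under 1 FPKM likewise had all KD values below all NC values. In reads it had 5, 3 and 9 in KD, against 20, 48 and 24 in NC.

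With the filter removed limma gave Irf5 an adjusted p = 0.0761. Voom on the recovered reads of 19676 genes with at least 10 reads gave a log2 difference of -2.47 (SE 0.57, limma adjusted p = 0.0106), a setting chosen after the data were seen in which 11.1% of genes were lower. That call ended without KD2 (limma adjusted p = 0.0511) and held without each of the others (0.00738 to 0.0237).

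Irf4 and Irf8, the lymphoid and myeloid members, were at or near the limit of detection. Irf4 (ENSMUSG00000021356, chr13:30749226-30766976) had 0 reads in each KD library, against 1, 5 and 2 reads in NC1, NC2 and NC3, at least 2.82-fold lower in KD if KD is set to 3 reads over the group. NC2 holds 5 of the 8 NC reads, and without it the 3 NC reads left are no more than that limit, so no fold can be given. Irf8 (ENSMUSG00000041515, chr8:120736358-120756694) had 0 reads in each KD library, against 0, 0 and 2 in NC1, NC2 and NC3, and no fold can be given. The limit of 3 reads over the KD group is 0.0118 FPKM for Irf4 and 0.00818 FPKM for Irf8, for counting error only.

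These blood-cell members were read against 16 leukocyte markers. The markers summed to 5.60 to 7.71 FPKM in KD and 6.95 to 8.14 FPKM in NC, most of it from Cd68, Coro1a and Lyz2, none of which passed limma. Ptprc (CD45) had at most 0.0238 FPKM in any library, and Cd52 and Adgre1 had 0 in all 6. Their part in the Irf4, Irf5 and Irf8 values was not tested. Fewer cells of a type and less RNA per cell cannot be told apart in such bulk samples.

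Per length, the order of levels in NC was Irf7, Irf1, Irf3, Irf2, Irf5, Irf4 and Irf8. In NC no neighbours in this order overlapped except Irf4 and Irf8. In KD the means ran Irf7, Irf3, Irf1, Irf2 and Irf5, and Irf3 (7.22 to 11.1 FPKM) overlapped Irf1 (7.76 to 8.71 FPKM). The 7 members summed to 32.4 to 37.9 FPKM in KD and 121 to 129 FPKM in NC. Without Irf7 the sum was 23.2 ± 1.99 FPKM in KD and 25.1 ± 0.629 FPKM in NC (SD, n = 3 each), and the ranges were 20.96 to 24.69 FPKM in KD and 24.75 to 25.9 FPKM in NC. Irf7 made up 35.0% ± 0.219 of the sum in KD and 79.9% ± 0.394 in NC (SD, n = 3 each).

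**Figure D3:**
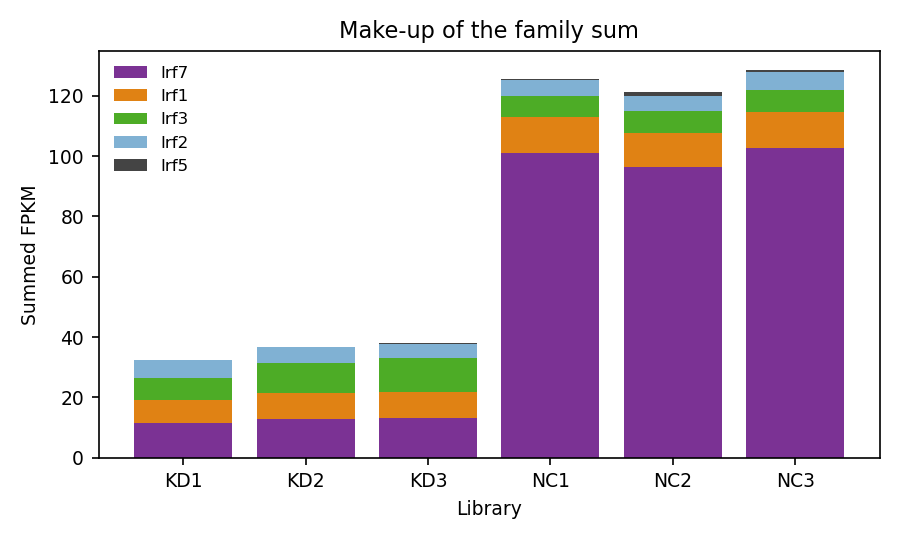
Summed FPKM of Irf7, Irf1, Irf3, Irf2 and Irf5 in each library, KD at the left and NC at the right; Irf4 and Irf8 are too low to draw. The Irf7 part is 11.4 to 13.2 FPKM in KD and 96.3 to 103 FPKM in NC, and the rest sums to 23.2 FPKM on average in KD and 25.1 FPKM in NC.

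Irf7 over Irf3, the pair that can form heterodimers on interferon promoters, was 1.58, 1.29 and 1.19 in KD1, KD2 and KD3, against 14.9, 13.1 and 14.3 in NC1, NC2 and NC3. Irf1 over Irf2, activator over repressor, was 1.32, 1.57 and 1.84 in KD, against 2.24, 2.20 and 1.97 in NC. Irf7 over Irf1 was 1.47 to 1.52 in KD and 8.33 to 8.57 in NC, and varied least among libraries of a group. For each of the 3 ratios the groups did not overlap, and the two-sided exact permutation p was 0.1, the smallest that 3 against 3 libraries allow (0.1 after adjustment over the 3).

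Profiles most like each tested member were found by the root mean square difference of log2(FPKM + 1) over the 6 libraries, each gene centred on its own mean. For Irf7 they were Ifi208 (0.109), Oasl1 (0.116) and Cxcl9 (0.183), of which Oasl1 is a 2'-5' oligoadenylate synthetase-like protein and Cxcl9 an interferon-induced chemokine. Ifi208 averaged 0.00343 FPKM in KD and 6.22 FPKM in NC, near the floor in KD. Oasl1 averaged 9.90 FPKM in KD and 70.9 FPKM in NC, and Cxcl9 0.738 FPKM in KD and 13.1 FPKM in NC. The log2(FPKM + 1) scale understates the change of low genes, so a like profile on it is not a like fold. For Irf1 they were Rpap3 (0.017), Gfm2 (0.022) and the collagen VI chain gene Col6a1 (0.024), for Irf3 Safb (0.029), Sh3gl1 (0.039) and Eno3 (0.044), and for Irf2 Nars2 (0.028), Bbx (0.043) and Phf7 (0.046). Safb and Eno3 showed the Irf3 pattern of a KD1 value in the NC range or close to it: Safb had 19.3, 25.8 and 28.3 FPKM in KD1, KD2 and KD3, against 18.6, 18.8 and 19.4 FPKM in NC.

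Irf5 lies on the same strand of chromosome 6 as Calu, and its start is 149.515 kb from the end of Calu. Of 12 tested genes with a midpoint within 500 kb of the Irf5 start, Calu not counted, 5 were lower and 0 higher. Their median log2 difference was -0.32. Of all tested genes 13.6% were lower and 10.9% higher. Of the 10 genes listed between Calu and Irf5, 3 were tested. The filamin gene Flnc had 44.0, 53.4 and 53.8 FPKM in KD1, KD2 and KD3, against 70.3, 73.5 and 71.0 FPKM in NC (log2 difference -0.50, limma adjusted p = 0.00807). Ccdc136 averaged 8.14 FPKM in KD and 10.9 FPKM in NC (-0.39, limma adjusted p = 0.0128).

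The third tested gene there, Atp6v1f, a subunit of the vacuolar proton pump, averaged 45.4 FPKM in KD and 45.3 FPKM in NC (limma adjusted p = 0.929). Opn1sw, which overlaps the end of Calu, had at most 0.0944 FPKM in KD and 0.370 in NC; Atp6v1fnb and Kcp were under 0.4 FPKM in every library, and Gm26220, Gm44354, Gm26484 and Gm26627 were at 0 in all 6. On the far side of Irf5, 0 of 3 tested genes passed limma in either direction; Tnpo3, the nuclear import receptor whose gene overlaps the end of Irf5 by 1045 bases, averaged 17.4 FPKM in KD and 19.4 FPKM in NC (limma adjusted p = 0.15). Chromosome 6 had a median log2 difference of -0.22 over 598 tested genes. With each chromosome's median removed, 1 of the 12 was lower and 1 higher. Without NC1, NC2, NC3 or KD2, 3, 3, 2 or 3 were lower, and without KD1, 8 were.

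**Figure D4:**
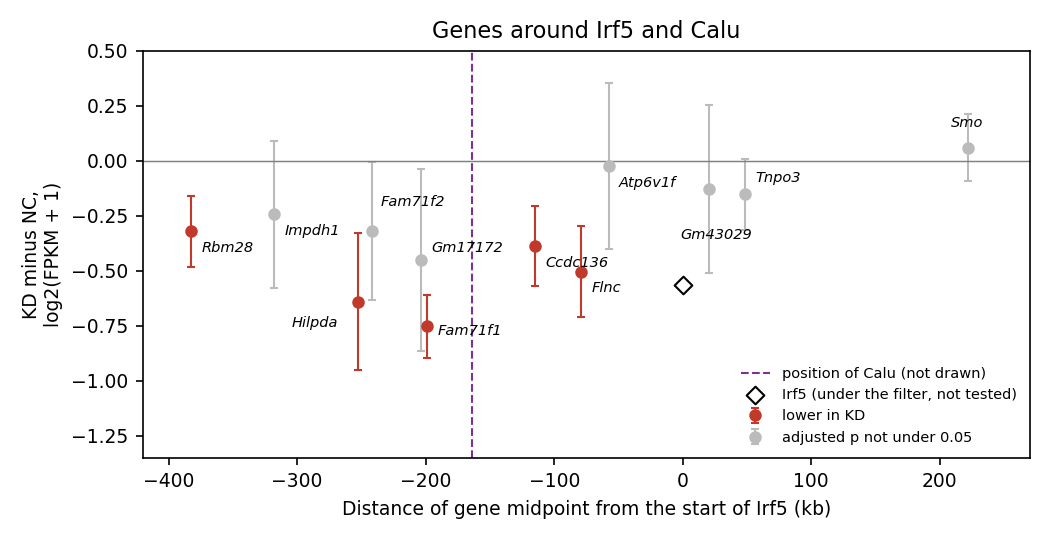
KD minus NC difference in log2(FPKM + 1) with its 95% interval for tested genes by distance of the midpoint from the start of Irf5, in kb. The open diamond is Irf5, under the filter, and the dashed line marks Calu, which is not drawn. The 5 genes lower in KD (red) lie on the Calu side, which holds all but 3 of the 12 tested genes drawn. The 3 genes beyond Irf5 are grey.

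Upstream of the factors, 6 of the 9 tested genes of the sensor list were lower, where 13.6% of all tested genes were. The median log2 difference was -1.33, against 0.01 over all tested genes. The list mixes classes: Tlr2, Tlr4 and Tlr6 bind bacterial lipids, and the other 6 bind nucleic acid. Of those 6, 5 were lower, and the DNA sensor gene Mb21d1 (cGAS) averaged 3.10 FPKM in KD and 3.84 FPKM in NC (limma adjusted p = 0.127). Tlr2 was lower, at 5.60 FPKM in KD and 11.4 FPKM in NC, and Tlr4 and Tlr6 did not pass (limma adjusted p = 0.693 and 0.472). The sensor of Z-form nucleic acid Zbp1 averaged 1.53 ± 0.201 FPKM in KD and 31.0 ± 0.710 FPKM in NC (SD, n = 3 each). Ifih1 (MDA5), a sensor of long double-stranded RNA, averaged 4.28 FPKM in KD and 19.9 FPKM in NC, Tlr3 2.47 FPKM in KD and 10.8 FPKM in NC, and Dhx58 (LGP2) 10.1 FPKM in KD and 36.6 FPKM in NC. All 4 passed limma, with an adjusted p of 0.000266 or less, and the count of lower genes on the whole list was 6 with any single library left out.

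Of 17 tested adaptors and kinases 3 were higher and 1 lower, with a median of 0.06. Of all tested genes 10.9% were higher and 13.6% lower. Tbk1, the kinase of Irf3 and Irf7, averaged 21.0 FPKM in KD and 21.8 FPKM in NC (log2 difference -0.05, limma adjusted p = 0.532), and its relative Ikbke 1.13 FPKM in KD and 1.09 FPKM in NC. Myd88, the adaptor of Toll-like receptors, fell to 17.8 ± 0.368 FPKM in KD, against 23.9 ± 1.26 FPKM in NC (SD, n = 3 each; limma adjusted p = 0.00435). The TBK1-binding protein gene Tbkbp1 averaged 13.2 FPKM in KD and 8.98 FPKM in NC, Tmem173 (STING) 7.84 FPKM in KD and 6.01 FPKM in NC, and the kinase Irak1 19.8 FPKM in KD and 16.0 FPKM in NC, with limma adjusted p between 0.0153 and 0.0492. The 3 higher calls changed when a library was left out. On this list 0 were higher without NC1, NC2, NC3 or KD2, 1 without KD3, and 5 higher and 3 lower without KD1. Higher calls over all tested genes also fell, from 1344 to between 590 and 651, without NC1, NC2, NC3 or KD2.

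Interferon genes were barely detected. The list holds the interferon beta and alpha genes, direct outputs of Irf3 and Irf7, and other interferons, among them Ifng and Ifne. Of 21 listed, 16 were at 0 in all 6 libraries and none reached the filter. Ifnb1 had 0, 2 and 0 reads in KD1, KD2 and KD3, against 4, 7 and 7 in NC1, NC2 and NC3. Ifna4, the interferon alpha gene induced early, had 1, 1 and 0 reads in KD, against 5, 7 and 6 in NC. Both passed limma with no filter (adjusted p = 0.034 and 0.0078), a setting in which 8.88% of 28280 genes passed. Ifna13, Ifne and Ifnz, also detected, did not pass there (limma adjusted p = 0.732, 0.730 and 0.379). Their log2 differences were 0.08, -0.07 and 0.10, so Ifna13 and Ifnz went the other way. Ifna13 had 10 reads over KD and 7 over NC, and Ifnz 7 over KD and 1 over NC. The interferon alpha genes are near-identical copies, so reads could be split between them.

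Of 10 tested partners and co-activators 3 were lower and 1 higher, with a median of -0.12, where 13.6% of all tested genes were lower and 10.9% higher. Stat2, a subunit of the factor that carries the interferon signal to response elements, averaged 18.7 ± 0.942 FPKM in KD and 53.6 ± 0.280 FPKM in NC (SD, n = 3 each). Batf2, a partner of Irf1 in macrophages, averaged 2.88 FPKM in KD and 7.01 FPKM in NC. The AP-1 subunit gene Jun averaged 25.7 FPKM in KD and 18.7 FPKM in NC, a call (limma adjusted p = 0.0336) lost without any library other than KD1.

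Of 12 tested repressors and degraders 3 were lower and 1 higher, with a median of 0.04, where 13.6% of all tested genes were lower and 10.9% higher. The list is mixed, as not all of its genes act on an IRF itself. Usp18, the interferon-induced brake on the interferon receptor, averaged 12.9 FPKM in KD and 68.9 FPKM in NC. Trim21, a ubiquitin ligase of IRFs, averaged 4.14 FPKM in KD and 9.51 FPKM in NC, and Socs1 1.90 FPKM in KD and 3.10 FPKM in NC. The deubiquitinase Cyld averaged 7.11 FPKM in KD and 5.44 FPKM in NC (limma adjusted p = 0.0153). Without NC1, NC3 or KD2 0 repressors were higher, and without NC2, NC3 or KD2 2 were lower; without KD1 4 were higher and 3 lower.

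Downstream, response-element genes were lower throughout and the IRF1-linked list was divided. All 21 tested genes of the response-element list were lower, with all 6 libraries and without any single one. The list's median log2 difference was -2.12, and 13.6% of all tested genes were lower. Ccl5 (0.389 FPKM in KD and 37.5 FPKM in NC), Rsad2 (4.73 FPKM in KD and 117 FPKM in NC), Cxcl10 (0.464 FPKM in KD and 14.8 FPKM in NC) and Ifit3 (15.8 FPKM in KD and 172 FPKM in NC) had the lowest log2(FPKM + 1) differences among its tested genes, an order that depends on this scale: by FPKM, Bst2 differed more (130.3 FPKM in KD and 353 FPKM in NC). Of 18 tested genes on the IRF1-linked list 11 were lower and 2 higher, with a median of -0.61. Of all tested genes 13.6% were lower and 10.9% higher. The guanylate-binding protein gene Gbp3 averaged 4.10 FPKM in KD and 48.6 FPKM in NC, and the proteasome activator gene Psme2 9.98 FPKM in KD and 25.3 FPKM in NC.

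The 2 that rose were the inflammatory caspase Casp1 and the lymphocyte growth factor Il7. Casp1 had 65.7, 54.0 and 56.4 FPKM in KD1, KD2 and KD3, against 23.5, 21.5 and 25.0 FPKM in NC1, NC2 and NC3. Il7 averaged 3.57 ± 0.611 FPKM in KD and 0.714 ± 0.270 FPKM in NC (SD, n = 3 each; log2 difference 1.42, limma adjusted p = 0.00168). Neither gene overlaps between groups, against 21.3% of tested genes with all KD values above all NC values. Without single libraries 10 to 14 of the list were lower and 2 higher. The lists were chosen with the fall of interferon-induced genes already known, so their counts are no independent evidence of direction.

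**Figure D5:**
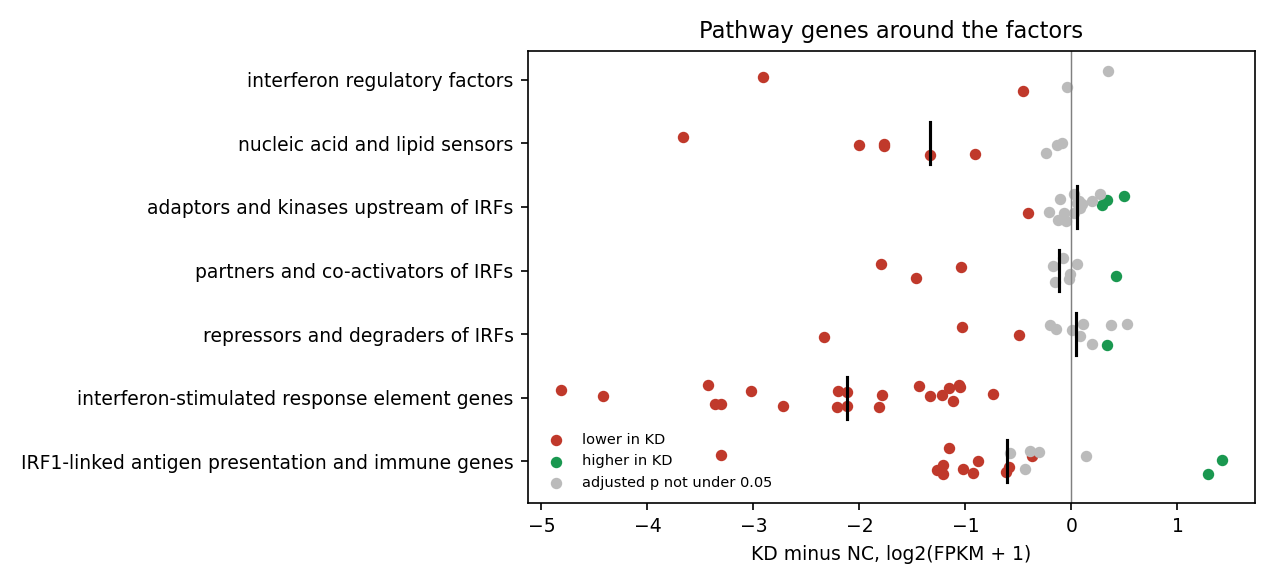
KD minus NC difference in log2(FPKM + 1) of each tested gene, for the factors and for 6 lists of pathway genes; black bars are list medians, red and green points have a limma adjusted p under 0.05. Response-element genes lie at -0.74 or below, adaptors and kinases lie around 0, and Casp1 and Il7 stand alone above 1.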

How the data were processed

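RNA-seq libraries were sequenced on an Illumina NovaSeq instrument and aligned with HISAT2 2.0.5 as paired-end reads, per the labels' protocols, to build mm10, per the submitters' processing notes. The authors deposited FPKM per gene with gene lengths (an "other" quantity, in bases, per the file headers). The counting tool is not given in the sources used here, nor are its strand setting and annotation release. Reads of a member and of an overlapping gene may therefore not be separable. On the other strand, Bcl2l12 overlaps Irf3 by 1065 bases and Tnpo3 overlaps Irf5 by 1045. Phrf1 likewise overlaps Irf7 by 45 and Gm17334 overlaps Irf1 by 907. Gm45479, Gm45481 and Gm31172 overlap Irf2 by 1723, 877 and 433 bases, also on the other strand. Gm20388, on the same strand as Irf8, overlaps it by 20337 bases and was at 0 in all 6 libraries. Whether this overlap lowered the Irf8 reads was not tested.

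FPKM times length was a whole multiple of one step per library for 100.0% of values within 0.01, which gave reads and depth; whether reads or fragments were counted is not stated. Groups came from the titles. Limma 3.58.1 in R 4.3.3 was fitted to log2(FPKM + 1) for the 12299 genes averaging 1 FPKM or more, using a mean-variance trend, and p was adjusted over them by Benjamini-Hochberg (threshold 0.05). Differences on this scale understate the change of low genes. The limma fit was also run on simulated reads with few changed genes and no library apart from the rest. In these data many genes were called and KD1 stood apart, so that run does not test the calls made here. Chromosomes with under 50 tested genes kept their values when medians were removed, and GC trends used splines with 5 degrees of freedom. The members, lists and settings were chosen with earlier results of these data known. Named genes were the members, Calu, genes between Calu and Irf5 or overlapping a member, up to 4 called genes per list with the largest difference (with none called, the 2 highest), and the 3 nearest profiles of each tested member. Others were named after their values were seen: Tbk1, Ikbke, Mb21d1, Tlr2, Tlr4, Tlr6, Bst2, Ifnb1, Ifna4, Ifna13, Ifne, Ifnz and the cell type markers. Of 19 listed adaptors and kinases 18 were found. Python 3.11.15, pandas 2.3.3, scipy 1.17.1 and matplotlib 3.10.9 made tables and plots. No protein sequence was used here, and 1 gene that this rule names is not reported here.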

Additional observations from a re-analysis of the deposited data

How the results depend on the processing

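Over 22 alternatives Irf7 and Irf1 stayed lower, with log2 differences of -3.00 to -2.59 (limma adjusted p at most 0.000176) and -0.50 to -0.33 (at most 0.0292). Median-of-ratios scaling, among these alternatives, could hardly change the fit. Its factor was 1.0037 in each of the 6 libraries, so the deposited FPKM were already on that scale. Members lower in KD numbered 2 in each except with voom on genes of at least 10 reads, where Irf5 made 3. Irf3 passed with array weights (0.45), a GC and length trend removed (0.29) and without KD1, which made 1 member higher in each of the 3; its range with a library left out was 0.23 to 0.51, and 0 to 1 members were then higher in KD. Irf2 changed sign with the GC and length trend removed (0.027) and ranged from -0.11 to 0.027 with a library left out; with chromosome medians removed it was -0.20, with the lowest limma adjusted p of any alternative (0.1999). Pseudocounts of 0.1 and 5 moved the low members: Irf4 to -0.41 and -0.0098, Irf5 to -1.80 and -0.15, Irf8 with 0.1 to -0.079; voom on at least 10 reads gave Irf5 -2.47. Main values were -0.05 for Irf4, -0.56 for Irf5 and -0.01 for Irf8. With a library left out, 923 to 2648 genes were lower and 590 to 2572 higher, against 1672 and 1344 with all 6; array weights gave 3483 and 3443, and the GC and length trend 2383 higher. The cause was not tested. Array weights were 0.130 for KD1, 4.63 for KD2 and 0.562 for KD3. That fit gave KD1 little weight, so for Irf3 it is no separate check from leaving KD1 out. The replicate block (replicate number as a term) gave -2.91 for Irf7, -0.45 for Irf1, 0.35 for Irf3 and -0.04 for Irf2, with 1383 genes lower and 1050 higher, and changed no call on a member; the numbers did not pair the libraries (correlations of deviations 0.08, -0.04 and 0.15 for numbers 1, 2 and 3), and not every library correlated best with its own number. Depth limits Irf4, Irf5 and Irf8.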
